A study of Mus musculus with 6 samples.

Results

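Macrophages of the fetal testis were followed through 10 genes in RNA sequencing of mouse testes at stage E12.5 (E, embryonic day). The genes were chosen by symbol, from the 24470 genes of the deposited table: Csf1r, Csf1, Adgre1, Cx3cr1, Mrc1, Cd68, C1qa, C1qb, C1qc and Lyve1. Of these, 9 mark macrophages or subsets of them, and Csf1 is the ligand of the receptor encoded by Csf1r. All 10 had counts in every sample and passed the filter on low counts, which left 15577 genes to test.

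The 3 control samples came from Ppp1r3c f/f testes, which carry floxed alleles of Ppp1r3c and no Cre. The 3 conditional knockout (cKO) samples came from Sf1-Cre Ppp1r3c f/f testes, with the same floxed alleles and a transgenic Cre under Nr5a1 (Sf1) control, a driver of the somatic lineage that gives rise to Sertoli cells. Ppp1r3c encodes a protein that directs protein phosphatase 1 to glycogen and favours glycogen synthesis. All animals were of a C57BL/6 background, RNA of 2 gonad pairs was pooled for each sample, and no treatment is named. The labels do not name litters, so the p-values measure the spread between these samples only. The comparison asked how macrophage transcripts stood in a testis where Cre under Nr5a1 control targeted Ppp1r3c. Loss of the gene was not measured by cell type.

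Macrophages are the main immune cells of the early fetal testis, where they clear dead cells and take part in shaping the blood vessels. They carry the receptor CSF1R, which keeps them alive when bound by CSF1 or by interleukin 34, ligands that are made largely by neighbouring cells. C1q, which they also secrete, is built from the products of C1qa, C1qb and C1qc, starts the classical complement pathway and tags dying cells for uptake.

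Library totals ran from 16139487 to 44145158 counts, with control replicate 1 the shallowest. The targeted gene lay between 22.1 and 24.4 CPM (counts after scaling every library to one common size with TMM factors) in control and between 4.71 and 5.96 CPM in cKO samples (log2 fold change -2.11, SE 0.111, edgeR adjusted p 0.000126). A pair of cKO libraries stood apart. In cKO replicate 1, 51 tested genes of at least 1 CPM lay more than 2-fold above the highest other sample, and in cKO replicate 3, 63 did, against 1 to 5 in each of the other samples. cKO replicate 3 held 379 CPM of Xist, the transcript of the inactive X chromosome, where the other samples held 0.369 to 1.0 CPM, and 50.9 CPM of the pre-granulosa gene Fst. Its summed level of 4 Y-linked genes was 219.8 CPM, against 257.8 to 277.1 CPM elsewhere.

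The regions before the gene starts are shown first, because the transcription factor PU.1, encoded by Spi1, drives many macrophage genes through sites with a GAGGAA core. RefSeq promoters (build GRCm38.p6) were matched for 6 of the 10 genes. The 250 bases before the start held GAGGAA on either strand in 4 of these 6, namely Mrc1, C1qb, C1qc and Cd68, and in 23.3% of all 32851 promoters. A match describes the letters only. The sequences of Mrc1 (chr2:14229164-14229413, plus strand), C1qb (chr4:136886201-136886450, minus strand), C1qc (chr4:136892915-136893164, minus strand) and Cd68 (chr11:69666171-69666420, minus strand) run 5′ to 3′ towards the start, with GAGGAA or its complement TTCCTC in capitals.

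Mrc1: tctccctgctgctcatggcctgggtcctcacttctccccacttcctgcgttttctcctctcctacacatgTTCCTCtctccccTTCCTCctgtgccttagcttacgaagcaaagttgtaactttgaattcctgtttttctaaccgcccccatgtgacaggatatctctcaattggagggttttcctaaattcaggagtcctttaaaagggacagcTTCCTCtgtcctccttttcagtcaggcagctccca

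C1qb: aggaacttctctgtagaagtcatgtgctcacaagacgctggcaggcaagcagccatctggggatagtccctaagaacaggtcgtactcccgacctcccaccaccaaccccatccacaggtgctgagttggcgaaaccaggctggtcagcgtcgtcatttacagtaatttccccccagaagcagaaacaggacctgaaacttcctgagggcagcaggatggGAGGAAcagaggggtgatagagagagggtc

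C1qc: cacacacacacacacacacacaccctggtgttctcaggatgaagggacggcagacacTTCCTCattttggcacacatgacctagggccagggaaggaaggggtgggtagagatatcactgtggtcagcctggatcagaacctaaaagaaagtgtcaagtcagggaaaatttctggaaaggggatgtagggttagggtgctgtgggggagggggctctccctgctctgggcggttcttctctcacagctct

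Cd68: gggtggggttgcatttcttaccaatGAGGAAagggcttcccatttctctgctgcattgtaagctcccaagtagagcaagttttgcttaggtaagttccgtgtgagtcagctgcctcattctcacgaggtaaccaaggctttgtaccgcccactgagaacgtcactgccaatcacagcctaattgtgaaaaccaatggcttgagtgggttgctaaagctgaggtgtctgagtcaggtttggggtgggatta

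Mrc1 held 3 matches, all on the strand opposite to the gene, the nearest at 35 to 30 bases before the start. C1qb held 1 at 30 to 25 bases, C1qc held 1 at 193 to 188 bases and Cd68 held 1 at 225 to 220 bases. Distances run from the start of the RefSeq promoters. For C1qb the deposited coordinates put the start at chr4:136886177, from which the match lies farther away. The promoter of Csf1, the gene made mostly outside macrophages, is shown for contrast (chr3:107760470-107760719, minus strand) and held no GAGGAA. That of Cx3cr1 held none either.

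Csf1: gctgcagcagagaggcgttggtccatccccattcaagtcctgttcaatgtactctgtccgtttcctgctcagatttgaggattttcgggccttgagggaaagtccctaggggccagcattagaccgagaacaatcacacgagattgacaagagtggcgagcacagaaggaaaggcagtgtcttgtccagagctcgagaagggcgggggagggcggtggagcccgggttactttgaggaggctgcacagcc

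The activator protein 1 motif TGANTCA, in 6.75% of all promoters, occurred only in Cd68 among the 6 genes, with 2 matches. The CCAAT box, in 33.8% of all promoters, occurred in Mrc1, Cx3cr1 and Cd68. None of the 6 held TATAAA, which 12.4% of promoters had.

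Macrophage transcripts were present in all samples. The control and cKO levels overlapped for 8 of the 10 genes and did not for 2. Over all tested genes, the groups did not overlap for 15.6%. edgeR called none of the 10 genes at an adjusted p below 0.05, where it called 0.0385% of all tested genes, and DESeq2 called none where it called 0.779%. At an unadjusted p under 0.05 edgeR had 1 of the 10, Mrc1, beside 11.4% of all genes. The adjusted p-values of the 10 ran from 0.380 to 0.999 with edgeR and, for the 9 genes to which DESeq2 gave one, from 0.353 to 0.999. Leaving aside Csf1, 2 genes had a log2 fold change above 0 and 7 below, with a median of -0.050, beside -0.0034 over all tested genes, whose middle range ran from -0.10 to 0.095. In whole tissue, fewer macrophages and less RNA per macrophage cannot be told apart.

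The summed level of the 9 macrophage genes was 51.8, 54.7 and 47.7 CPM in control replicates 1 to 3 and 51.7, 50.7 and 52.9 CPM in cKO replicates 1 to 3. The cKO values lay inside the control range. Group means were 51.4 ± 3.52 CPM (SD, n = 3) and 51.8 ± 1.06 CPM (SD, n = 3), a ratio of 1.01. Genes with the most counts weigh most in such a sum. The ratio rests in part on Mrc1, whose mean was 9.88 CPM in control and 12.1 CPM in cKO samples. In the other direction, 7 of the 9 genes had a log2 fold change below 0.

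**Figure D1:**
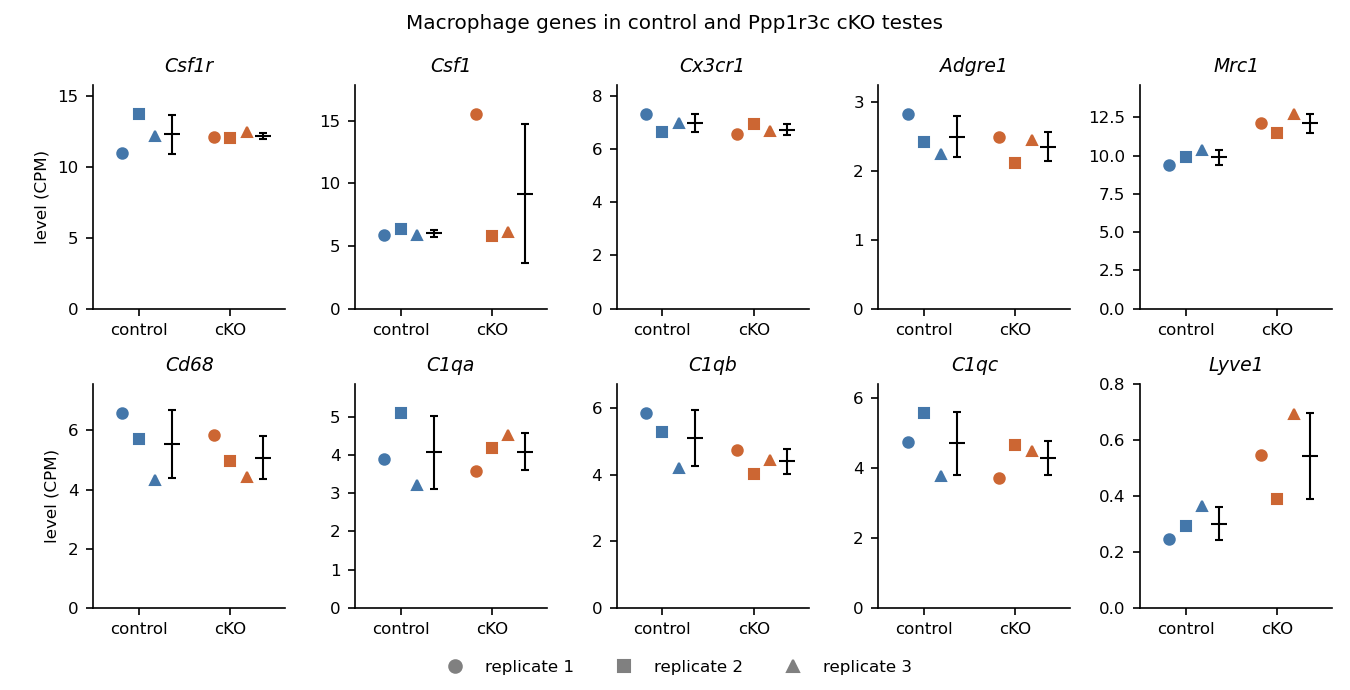
Level in CPM (vertical axes, from 0) of the 10 genes in each of the 3 control (blue) and 3 cKO (orange) samples, with marker shape for the replicate number and black bars for the mean and SD of a group. The groups overlapped for 8 genes and did not for Mrc1 and Lyve1, beside 15.6% of all tested genes without overlap. Csf1 had 1 cKO sample at 15.6 CPM with all others between 5.81 and 6.36 CPM.

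Csf1r, which encodes the receptor that macrophages depend on, held 11.02, 13.8 and 12.2 CPM in control and 12.1, 12.04 and 12.46 CPM in cKO samples. The cKO samples were nearly alike and fell between the control samples. The fold change was 0.984 (95% interval 0.834 to 1.16, edgeR adjusted p 0.953). This interval takes in a lower as well as a higher level of the receptor transcript.

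Csf1 (chr3:107741048-107760469, minus strand) encodes the macrophage growth factor itself. Its level was 5.85, 6.36 and 5.86 CPM in control samples and 15.6, 5.81 and 6.14 CPM in cKO samples, from 95, 281, 240, 624, 209 and 203 counts in that order. Replicate 1 of the cKO group lay 2.45-fold above the highest other sample, and the remaining cKO samples lay at the level of the controls. The log2 fold change was 0.61 (SE 0.340, edgeR adjusted p 0.518), and without cKO replicate 1 it was -0.014 (adjusted p 0.983). The value thus rests on 1 library. The SD of the cKO group was 60.4% of its mean, where counting error alone gives 6.14%, and in the control group these values were 4.87% and 7.80%.

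In the same library Csf1r, at 12.1 CPM, and the summed macrophage genes, at 51.7 CPM, lay within the range of the other samples. Csf1 was the only one of the 10 genes among the 51 that were raised more than 2-fold in cKO replicate 1, which are 0.327% of the tested genes. Genes whose log2 CPM followed Csf1 closely over the 6 samples, by Pearson correlation, included Thbs2, Sfxn2, Ccn1, Shmt2, Anxa1, Txnrd3 and Cwc22, with r from 0.977 to 0.995. These genes, and the choice to look at cKO replicate 1, were picked after the values were seen, and 35 tested genes had r above 0.95, so the likeness is a description of 6 samples in which 1 was high.

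Thbs2, which encodes the matrix protein thrombospondin 2, held 87.1 CPM in cKO replicate 1 and 5.23 to 8.92 CPM in the others. Anxa1, which encodes annexin A1, held 48.2 CPM against 6.60 to 8.95 CPM, and Ccn1, a matricellular growth regulator, 80.1 CPM against 19.7 to 25.8 CPM. Sfxn2, Shmt2 and Txnrd3 were also highest in cKO replicate 1, with far smaller steps, for example 89.1 CPM of Shmt2 in cKO replicate 1 and 72.9 to 75.8 CPM elsewhere. Ccl2, the main attractant of monocytes, did not pass the filter but had its highest level, 1.35 CPM, in the same sample, against 0.121 to 0.249 CPM in the others.

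**Figure D2:**
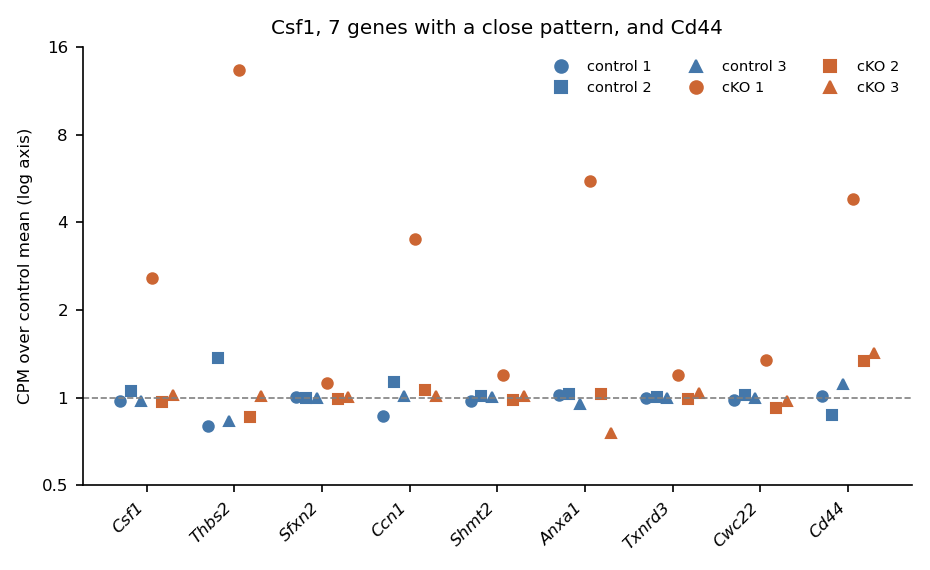
Level of Csf1, of 7 tested genes with a close pattern and of Cd44 in each sample, divided by the mean of the 3 control samples (vertical axis, log scale; control samples blue, cKO samples orange, shape for the replicate number). Replicate 1 of the cKO group is the highest sample for all 9 genes, from a small step for Sfxn2 to 87.1 CPM for Thbs2.

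Interleukin 34, the other ligand of CSF1R, is encoded by Il34. It held 0.923, 1.06 and 1.05 CPM in control and 0.998, 1.17 and 1.12 CPM in cKO samples, and the groups overlapped (log2 fold change 0.10, SE 0.238, edgeR adjusted p 0.906). Per kilobase of exon, a scale on which genes may be compared, Csf1 lay at 1.24 to 1.35 in control samples and Il34 at 0.505 to 0.582 CPM per kilobase. Csf1 was the more abundant ligand transcript in all 6 samples.

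Cx3cr1 (chr9:120048683-120068296, minus strand), the fractalkine receptor of macrophages and microglia, held 7.33, 6.65 and 6.98 CPM in control and 6.56, 6.95 and 6.69 CPM in cKO samples. The groups overlapped, with a fold change of 0.966 (95% interval 0.801 to 1.17, edgeR adjusted p 0.903). Its ligand is encoded by Cx3cl1, which held 44.6, 44.3 and 40.9 CPM in control and 55.0, 52.4 and 50.8 CPM in cKO samples. Every cKO sample lay above every control sample. The log2 fold change of Cx3cl1 was 0.29 (SE 0.0657), which edgeR did not call (adjusted p 0.377) and DESeq2 did (adjusted p 0.0465). Per kilobase of exon the ligand, at 13.6 CPM as the mean of the 6 samples, exceeded the receptor, at 1.52 CPM.

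Adgre1 (chr17:57358686-57483529, plus strand) encodes F4/80, the classical surface marker of mouse macrophages. It held 2.83, 2.42 and 2.24 CPM in control and 2.49, 2.11 and 2.45 CPM in cKO samples. The groups overlapped, and the fold change was 0.951 (95% interval 0.707 to 1.28, edgeR adjusted p 0.912). The spread among its samples, 12.1% of the mean in control and 8.85% in cKO, was about that of counting alone, which gives 11.8% and 10.9%.

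Cd68 (chr11:69664213-69666170, minus strand) encodes macrosialin, a glycoprotein of macrophage lysosomes. Its level was 6.59, 5.70 and 4.32 CPM in control and 5.86, 4.95 and 4.42 CPM in cKO samples. All cKO values lay inside the control range. The fold change was 0.928 (95% interval 0.691 to 1.25, edgeR adjusted p 0.863), and control samples spread by 20.7% of their mean where counting gives 7.95%.

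Mrc1 (chr2:14229414-14332023, plus strand) encodes the mannose receptor CD206, found on resident macrophages and on some endothelial cells. It held 9.36, 9.91 and 10.4 CPM in control samples and 12.1, 11.5 and 12.7 CPM in cKO samples. Every cKO sample lay above every control sample. The fold change was 1.22 (95% interval 1.04 to 1.43), with an unadjusted p of 0.0179 and an adjusted p of 0.380 in edgeR. An exact two-sided permutation test gave p = 0.1, which is the lower limit of a design with 3 samples in each of the groups. Left-out samples moved its log2 fold change, 0.29 over all samples, between 0.25 and 0.33.

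Lyve1 (chr7:110850607-110862953, minus strand) encodes a hyaluronan receptor of lymphatic endothelium and of a subset of perivascular macrophages. It was the scarcest of the 10 genes, with 4, 13 and 15 counts in control and 22, 14 and 23 counts in cKO samples. These are 0.246, 0.294 and 0.366 CPM in control and 0.549, 0.389 and 0.696 CPM in cKO samples. The groups did not overlap, but cKO replicate 2 lay close to control replicate 3. The fold change was 1.73 (95% interval 0.965 to 3.11, edgeR adjusted p 0.454, exact permutation p 0.1). Without cKO replicate 3 the log2 fold change was 0.59, from 0.79 over all samples, and counting error alone gives a control sample 36.2% of its level.

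Mrc1 and Lyve1 were thus 2 of 10 genes with higher values in every cKO sample, beside 8.42% of all tested genes. No gene of the 10 was lower in every cKO sample, beside 7.17%. In either direction, the groups did not overlap for 15.6% of all tested genes. The transcripts of Mrc1 and Lyve1 also occur in endothelium. The 10 endothelial markers, all tested, had 5 higher and 5 lower log2 fold changes with a median of 0.0034, and their summed level was 734 to 831 CPM in control and 719 to 840 CPM in cKO samples. Pecam1, which encodes the endothelial adhesion protein CD31, had the lowest p of these, with a log2 fold change of -0.19 (edgeR adjusted p 0.377). Of 5 lymphatic endothelial markers 4 were tested, with a median of 0.025 and sums of 52.6 to 62.9 CPM in control and 55.4 to 66.2 CPM in cKO samples. Among them Ccl21a was at 0 in all samples, Prox1 held 1.74 to 2.89 CPM, and Flt4 had the lowest p (log2 fold change 0.19, edgeR adjusted p 0.476). The part of endothelium in the Mrc1 and Lyve1 values was not tested.

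**Figure D3:**
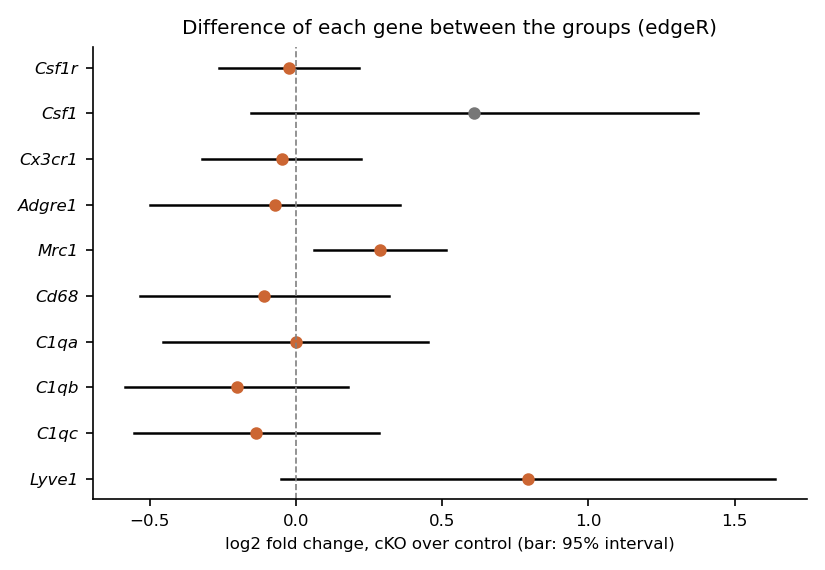
Log2 fold change of cKO over control from edgeR for each gene (horizontal axis; point, estimate; bar, 95% interval; the ligand gene Csf1 in grey). The interval of Mrc1, 0.062 to 0.51, is the only one that leaves out 0, and those of Csf1 and Lyve1 are the widest.

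The genes of C1q lie together on chromosome 4 within 18.7 kilobases (chr4:136880145-136898844), all on the minus strand. C1qa (chr4:136895916-136898844) held 3.88, 5.09 and 3.22 CPM in control and 3.57, 4.17 and 4.51 CPM in cKO samples. C1qb (chr4:136880145-136886177) held 5.85, 5.27 and 4.197 CPM in control and 4.74, 4.004 and 4.45 CPM in cKO samples. In C1qa the highest and the lowest sample were both controls, while for C1qb the lowest was cKO replicate 2 and the highest control replicate 1.

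C1qc (chr4:136889802-136892914) held 4.74, 5.57 and 3.78 CPM in control and 3.72, 4.64 and 4.48 CPM in cKO samples, again with overlapping groups. The fold changes were 0.999 for C1qa (95% interval 0.730 to 1.37), 0.869 for C1qb (0.667 to 1.13) and 0.910 for C1qc (0.681 to 1.22), with edgeR adjusted p-values of 0.999, 0.667 and 0.813. Each interval takes in both a lower and a higher level than in control. Control samples spread by 23.4%, 16.4% and 19.0% of the mean for C1qa, C1qb and C1qc, above the 9.64%, 8.29% and 8.85% that counting gives.

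The summed level of the C1q genes was 14.5, 15.9 and 11.2 CPM in control and 12.02, 12.8 and 13.4 CPM in cKO samples, and the cKO values lay inside the control range. Group means were 13.9 ± 2.42 CPM (SD, n = 3) and 12.8 ± 0.708 CPM (SD, n = 3). Set per kilobase of exon, C1qa made 31.1% ± 2.77 of the C1q total in control and 34.0% ± 2.17 in cKO samples (SD, n = 3 each). C1qb made 37.7% ± 3.76 and 35.2% ± 4.31, and C1qc made 31.2% ± 1.0 and 30.8% ± 2.51. The chains, which assemble in equal numbers in the protein, thus had transcripts of similar abundance, with single shares between 28.4% and 41.2%.

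**Figure D4:**
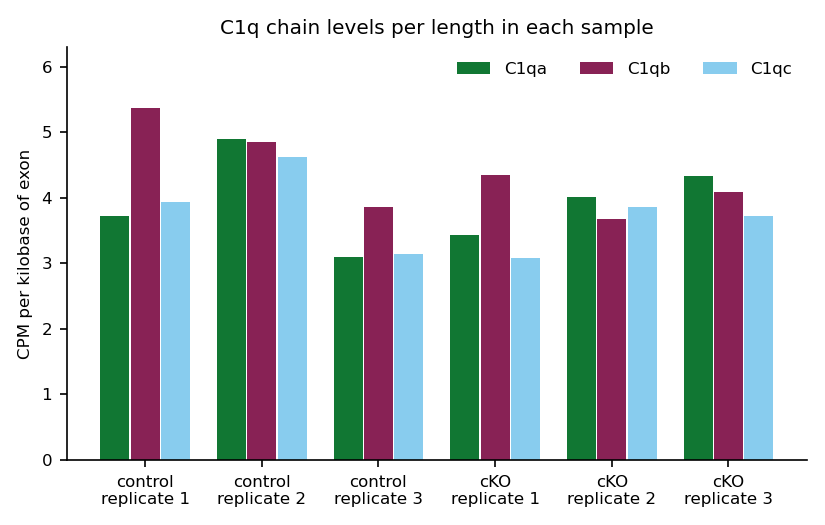
Level of C1qa, C1qb and C1qc in each sample in CPM per kilobase of exon (vertical axis, from 0). The 3 genes stood between 3.09 and 5.38 CPM per kilobase in all samples, and none of them was the highest in every sample.

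The tested genes on either side of the C1q genes encode receptors of the ephrin family. Ephb2, 44.1 kilobases away, held 48.0 to 52.5 CPM in control and 52.8 to 63.0 CPM in cKO samples, which did not overlap (log2 fold change 0.21, edgeR adjusted p 0.389). Epha8, 30.6 kilobases away on the other side, held 1.13 to 1.54 CPM in control and 1.22 to 1.27 CPM in cKO samples.

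Ranked per kilobase of exon as the mean of the 6 samples, C1qb stood at 4.37, Cd68 at 4.22, C1qa at 3.92 and C1qc at 3.73 CPM per kilobase, and their sample ranges overlapped. Csf1r followed at 2.51, with all samples below the lowest value of any C1q gene. Mrc1, at 2.05, overlapped with Csf1r. Csf1 stood at 1.61 and Cx3cr1 at 1.52, but this order rests on cKO replicate 1, with Csf1 at 3.30. In each of the other 5 samples Csf1, at 1.23 to 1.35, lay below Cx3cr1, at 1.48 to 1.63. Adgre1 stood at 0.749 and Lyve1 at 0.146 CPM per kilobase, the last with every sample below every sample of Adgre1. The general leukocyte gene Ptprc, which encodes CD45, stood at 0.420, and Spi1 at 0.569.

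The 10 genes were also compared with each other from sample to sample. Of 45 pairs over the 6 samples, 4 had an unadjusted permutation p under 0.05 for Pearson's r, and none had one after Benjamini-Hochberg adjustment. With 6 samples a single pair among 45 could not reach an adjusted p below 0.0625, so this count sets no limit on how far the genes varied together. Mrc1 and Lyve1 had the highest correlation (r = 0.97, exact permutation p 0.00139, adjusted 0.0625; Spearman's rho 1, exact permutation p 0.00278, adjusted 0.125). It was 0.93 without the 2 samples farthest from the median of Mrc1. Since both genes were higher in the cKO group, the difference between groups is part of that value. C1qa and C1qc had r = 0.89 and rho = 0.71 (exact permutation p 0.0306 and 0.136, adjusted 0.458 and 0.955), and r was 0.64 without the 2 farthest samples. The remaining pairs of the 4 joined C1qb to Adgre1 and to Cd68. Their r was 0.90 and 0.84 (exact permutation p 0.0167 and 0.0472, adjusted 0.375 and 0.531), and 0.57 and 0.63 without the 2 farthest samples. C1qa and C1qb, the outer genes of the cluster, with C1qc between them, had r = 0.27 and rho = 0.20 (exact permutation p 0.599 and 0.714, adjusted 0.881 and 1). Among the 36 pairs without Csf1, 20 had a positive and 16 a negative r, with a median of 0.074.

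The 8 tested genes most like the mean of the 9 macrophage genes over the 6 samples were Palm3, 1700008J07Rik, Ecsit, Aox2, Memo1, Gm20337, 1700001O22Rik and Ergic1, with r from 0.974 to 0.994, and 30 genes had r above 0.95. Palm3, the closest, moved only between 24.0 and 28.2 CPM. That likeness follows differences between samples that are themselves small. The mean log2 level of the macrophage genes ran from -0.11 in control replicate 3 to 0.11 in cKO replicate 3 around the control mean. Each of the 9 genes weighs the same in this mean, Lyve1, the scarcest, included. In cKO replicate 3 Lyve1 held 0.696 CPM, beside a control mean of 0.302 CPM. The part of Lyve1 in the likeness was not tested.

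Around the 10 genes, 11 lists of macrophage pathways held 135 further genes, of which 114 were tested. edgeR called none and DESeq2 called 1, Cx3cl1. At an unadjusted p under 0.05 there were 11 genes, 9 higher and 2 lower, which is 9.65% beside 11.4% of all tested genes. The groups did not overlap for 12 genes that were higher and 4 that were lower, together 14.0% beside 15.6% of all genes. The median log2 fold change was 0.013, with 62 genes above and 52 below 0. Other than the genes of lowest p and those called, the genes of these lists that are named, Il34 and Ccl2 included, were chosen after their values were seen.

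**Figure D5:**
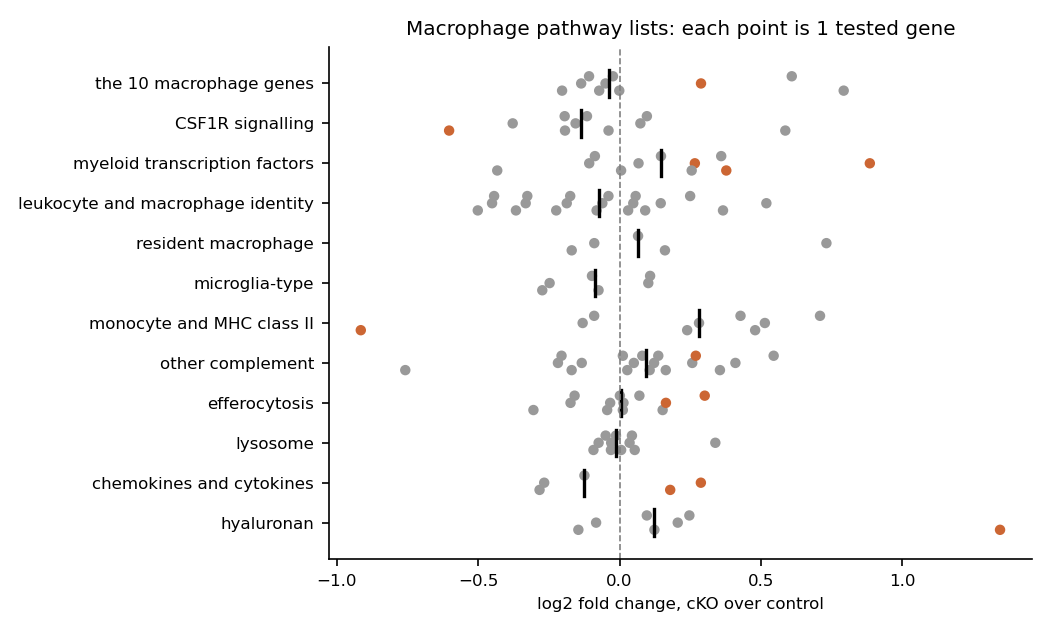
Log2 fold change of cKO over control for each tested gene (point) of the 10 macrophage genes and of the 11 pathway lists, with a black line at the median of a list and orange points for an unadjusted edgeR p under 0.05. Points lie on both sides of 0 in every list, and Cd44 lies farthest from 0.

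All 10 genes of CSF1R signalling were tested, 3 higher and 7 lower, with a median of -0.14. The median ran from -0.21 without cKO replicate 2 to -0.068 without cKO replicate 3, and was -0.075 without control replicate 1. Plcg2, a phospholipase that acts below immune receptors, had the lowest p, with 27.8, 40.7 and 49.99 CPM in control and 33.2, 18.2 and 27.3 CPM in cKO samples. Its groups overlapped (log2 fold change -0.60, SE 0.232, edgeR adjusted p 0.399).

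Of 11 myeloid transcription factors, all tested, 8 were higher and 3 lower, with a median of 0.15, from 0.091 without cKO replicate 2 to 0.30 without cKO replicate 1. Spi1 itself held 0.985, 2.01 and 0.952 CPM in control and 1.02, 1.28 and 0.696 CPM in cKO samples (log2 fold change -0.43, SE 0.364, edgeR adjusted p 0.671). Runx1 and Cebpb had an unadjusted p under 0.05, both higher. Cebpb, a factor of myeloid differentiation, held 8.25, 7.54 and 8.59 CPM in control and 10.9, 9.51 and 11.3 CPM in cKO samples, with an edgeR adjusted p of 0.377. Runx1, known both in blood cells and in the supporting cells of the ovary, held 9.08 to 17.7 CPM in control and 18.3 to 33.4 CPM in cKO samples, the highest in cKO replicate 3 (log2 fold change 0.89, or 0.61 without that sample, edgeR adjusted p 0.377). The 6 pre-granulosa markers, of which Runx1 is one, summed to 81.5 to 109 CPM in control and 106 to 284 CPM in cKO samples, and their part in the Runx1 value was not tested.

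Among 22 genes of leukocyte and macrophage identity, 20 were tested, 8 higher and 12 lower, with a median of -0.071. Itgam, the integrin chain CD11b, was the lowest by p, with 2.28, 2.56 and 2.76 CPM in control and 1.99, 2.06 and 1.88 CPM in cKO samples. The groups did not overlap (log2 fold change -0.37, SE 0.185, edgeR adjusted p 0.478). Ptprc held 2.15, 1.83 and 1.68 CPM in control and 1.92, 2.503 and 2.81 CPM in cKO samples, with the groups overlapping (log2 fold change 0.37, edgeR adjusted p 0.550).

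Of 10 markers of mature resident macrophages, 5 were tested, 3 higher and 2 lower, and Timd4, Cd163, Cbr2, Mgl2 and Clec10a failed the filter. Stab1, a scavenger receptor of macrophages and sinusoidal endothelium, held 44.9, 40.1 and 44.4 CPM in control and 45.2, 51.7 and 47.5 CPM in cKO samples (log2 fold change 0.16, SE 0.0754, edgeR adjusted p 0.454). Like Mrc1 and Lyve1 it was higher in every cKO sample, by a small step, as were 8.42% of all tested genes. The groups overlapped for the other tested markers of this list, Folr2, F13a1, Siglec1 and Pf4. Of 7 genes known from microglia 6 were tested, 2 higher and 4 lower, with Tmem119 the lowest by p (log2 fold change -0.27, edgeR adjusted p 0.464).

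Of 11 genes of monocytes and major histocompatibility complex class II, 9 were tested, 6 higher and 3 lower. Ccr2, the receptor that draws monocytes from the blood, held 0.862, 0.951 and 0.683 CPM in control and 0.424, 0.612 and 0.272 CPM in cKO samples. Every cKO sample lay below every control sample (log2 fold change -0.92, SE 0.359, edgeR adjusted p 0.402). Chil3 was at 0 in all samples.

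Other complement genes were tested for 18 of 21, 13 higher and 5 lower, with a median of 0.093, from 0.017 without cKO replicate 3 to 0.16 without control replicate 1. Cd55, which shields cells from complement, had the lowest p, with 26.7, 28.5 and 22.3 CPM in control and 30.1, 30.0 and 33.3 CPM in cKO samples (log2 fold change 0.27, SE 0.0977, edgeR adjusted p 0.382). C1ra and C1s1, whose products are the proteases that join C1q, had log2 fold changes of 0.050 and 0.14, with edgeR adjusted p-values of 0.917 and 0.807.

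The 12 genes for uptake of dying cells were all tested, 7 higher and 5 lower, with a median of 0.0064. Axl, a receptor for such cells, held 582, 530 and 547 CPM in control and 623, 637 and 598 CPM in cKO samples (log2 fold change 0.16, SE 0.0560, edgeR adjusted p 0.380). Its groups did not overlap. The 11 lysosomal genes, 5 higher and 6 lower, had a median of -0.013, and the lowest p was that of Laptm4b (log2 fold change 0.34, edgeR adjusted p 0.441), whose highest level was in cKO replicate 3 and whose log2 fold change was 0.11 without it.

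Of 12 chemokine and cytokine genes only 5 passed the filter, Cx3cl1, Ccl9, Cxcl16, Cxcl10 and Tgfb1. Of these 2 were higher and 3 lower, with a median of -0.12. Like Cx3cl1, Tgfb1 was higher in every cKO sample. It held 35.5, 33.4 and 35.4 CPM in control and 38.8, 39.5 and 39.7 CPM in cKO samples (log2 fold change 0.18, SE 0.0603, edgeR adjusted p 0.377). The inflammatory genes Il1b and Tnf were at most 0.0556 and 0.250 CPM. Of 8 genes that make, bind or degrade hyaluronan, 7 were tested, 5 higher and 2 lower. Cd44, a hyaluronan receptor of many cell types, held 5.11, 4.41 and 5.61 CPM in control and 24.3, 6.76 and 7.17 CPM in cKO samples. Like Csf1 it was highest in cKO replicate 1, and its log2 fold change of 1.35 (edgeR adjusted p 0.377) was 0.47 without that sample.

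Markers of other blood cells and of the testis give the setting of these values. Summed levels were 2701 to 3380 CPM in control and 2367 to 3050 CPM in cKO samples for 9 erythroid genes, and 29.7 to 34.2 and 29.0 to 36.5 CPM for 6 megakaryocyte genes. The lists of neutrophils and mast cells and of lymphocytes stayed at or under 9.04 and 1.67 CPM, with Mcpt4 and Gzma at 0 throughout. In the germ cell list all 9 tested genes were lower, with a median of -0.84, and sums of 443 to 739 CPM in control and 209 to 465 CPM in cKO samples. DESeq2 called Dnd1 and Mael of these and edgeR none. The part of this shift in the CPM of the macrophage genes was not tested.

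Medians of the remaining lists were -0.021 for Sertoli, -0.052 for interstitial and 0.52 for mesonephric genes. The median of the fetal Leydig genes was -0.31, from -0.55 without cKO replicate 2 to -0.045 without cKO replicate 3. That of the pre-granulosa genes, all 6 of them higher, was 1.11, and 0.47 without cKO replicate 3. Left-out single samples turned the sign of the medians of the leukocyte identity, dying cell uptake, lysosomal, chemokine and cytokine, endothelial and lymphatic endothelial lists. The same held for the erythroid, Sertoli, interstitial and Y-linked lists, and all of these medians stayed between -0.18 and 0.15. The medians of the resident macrophage list and of the neutrophil and mast cell list also turned. They ran from -0.18 to 0.18 and from -0.20 to 0.28.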

How the data were processed

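RNA was sequenced from whole E12.5 testes in 3 control and 3 Ppp1r3c cKO samples, grouped by title. The deposited table held gene-level read counts without normalization: the authors made stranded mRNA libraries, aligned read pairs to mm10 with STAR (2.5) and counted them per gene, by strand, with featureCounts of Subread (1.5.0-p1). It repeated 2 symbols. None of the 10 genes overlaps another gene of the table, apart from Csf1r and Mrc1, which each hold a microRNA gene with 0 counts.

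In R 4.3.3, edgeR 4.0.16 (filterByExpr with a minimum count of 10, TMM, quasi-likelihood F-test, cKO against control) was fitted to all genes, with Benjamini-Hochberg adjustment over the 15577 tested. Genes with an adjusted p below 0.05 are termed called. Standard errors were derived from the F statistic. Log2 CPM used a prior count of 2. Length was the union of GENCODE M21 exons. DESeq2 1.42.0, limma-voom (limma 3.58.1), RLE size factors, no filter, a stricter filter (1 CPM in 3 samples), a replicate block and leaving out each sample were alternatives. Thinned libraries and the newer quasi-likelihood method were added once values were known. edgeR in its main setting, DESeq2 and limma-voom were first tested on simulated data, and the other alternatives were not.

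The 10 genes and all lists were chosen with earlier results of these data known. The rule for naming genes took the 10 genes, Ppp1r3c, the lowest p and any called gene of each list, Xist, the Y-linked sum, the 8 genes most like the macrophage level and the neighbours of the C1q genes. Replicate numbers did not pair the samples: deviations of same-numbered samples correlated at -0.20, -0.27 and -0.13. Every pair of libraries differed by more than sampling noise (chi-square per degree of freedom 6.76 to 27.7). Some genes of the lists are not reported here.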

Additional observations from a re-analysis of the deposited data

How the results depend on the processing

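None of the 10 genes passed the threshold under any of the 14 alternatives, and the lowest adjusted p was 0.335 (Mrc1, limma-voom). Lyve1 gave no value under the stricter filter or in thinned libraries. Of 138 values, 14 changed sign, none of them past the threshold. C1qa, -0.00099 over all samples, was 0.0020 with DESeq2, 0.0016 with RLE size factors, 0.0014 without a filter, 0.0010 with the stricter filter and 0.012 in thinned libraries. Leaving out each sample in turn moved the log2 fold change from -0.16 to 0.20 for C1qa, from -0.090 to 0.056 for Csf1r, from -0.014 to 0.85 for Csf1, from -0.15 to 0.012 for Adgre1 (0.00027 without cKO replicate 2), from -0.27 to 0.020 for Cd68, from -0.28 to 0.011 for C1qc and from -0.19 to 0.021 for Eif2s3y.

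Over all genes edgeR called 6, 5 higher and 1 lower. Without single samples this was 2 to 8, with 1 to 5 higher and 1 to 3 lower, and it was lowest without control replicate 1 or 3. DESeq2 called 111, 57 higher and 54 lower, and 1 in the pathway lists against 0. The stricter filter gave 3 higher. limma-voom, no filter and the newer quasi-likelihood method gave 2 lower each. The causes were not tested. With the replicate block 3 genes were called, 2 of them higher, none of the 10 genes was called, and C1qa was 0.025. The numbers did not pair the samples.

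Depth limits Lyve1 most, with 4 to 23 counts a sample, and then Adgre1, with 46 to 107, whose samples spread by about the counting error.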
